A study of Mus musculus with 34 samples.

Results

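Of the 11531 genes in the hippocampal tables, 9 are described here, chosen by symbol because their products build the myelin sheath or define the cells that make it: Mbp, Mobp, Cnp, Mag, Mog, Cldn11, Mal, Ugt8a and Olig1. All 9 were found, each on 1 row, in both the ribosome footprint (RPF) and the RNA tables. Footprints, the stretches of mRNA that a ribosome shields from nuclease, and RNA were sequenced from hippocampus of C57BL/6N mice. A control group without stimulus was compared with mice that underwent contextual fear conditioning, a foot shock after exploring a chamber, and whose hippocampi were frozen 5 min, 10 min, 30 min or 4 h later. All mice, per the labels' treatment text, were caged singly and handled on the days before, and their age was not given in the sources used here. Each of the 5 groups had 3 libraries of each kind, numbered 1 to 3 in the labels. A hippocampal primary culture and the mouse embryonic stem cell (ESC) line A3-1, treated with an siRNA against luciferase for 48 h, had 1 library of each kind. The labels do not say whether libraries of a group came from separate mice, and p-values then reflect only how far these samples spread, which can be technical.

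Myelin is the membrane that oligodendrocytes wrap around axons in the brain, where it insulates them and speeds conduction. Its compact layers are held together with the help of myelin basic protein (Mbp), while glycoproteins such as Mag and Mog lie at its inner and outer surfaces. Membrane and secreted proteins are made on ribosomes bound to the endoplasmic reticulum. Mbp mRNA is instead carried out along the processes and translated on free ribosomes close to the growing sheath. Myelin formation and remodelling have been studied as slow components of learning, including fear memory.

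The values, called signal here, are reads on a gene divided by 1 number per library, so a gene's signal can be set against itself in another library but not against another gene's. The 15 tissue RPF libraries held 14240563 to 30480009 reads on listed genes and the 15 RNA libraries 16814796 to 25515210. The members held at least 738 reads in every library, a count whose own error is at most 3.68%. Sox10, a transcription factor of the oligodendrocyte lineage, had a control signal of 2.54 ± 0.237 in RPF and 0.727 ± 0.051 in RNA (SD, n = 3). Of 8 Schwann cell genes, which mark peripheral myelin, 1 was listed. In bulk tissue, fewer oligodendrocytes and less RNA per oligodendrocyte cannot be told apart.

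Mog encodes an immunoglobulin-like protein on the outermost face of myelin. In the order of numbers 1, 2 and 3, its footprint signal was 11.2, 9.89 and 12.97 in the control libraries, 12.5, 10.6 and 13.8 at 5 min, 11.4, 11.3 and 13.6 at 10 min, 10.6, 13.4 and 11.3 at 30 min and 11.1, 12.9 and 12.99 at 4 h. Its RNA signal was 3.18, 3.19 and 6.07 in the control libraries, 3.62, 3.24 and 6.01 at 5 min, 3.15, 3.65 and 6.51 at 10 min, 3.12, 3.88 and 5.65 at 30 min and 2.91, 3.88 and 6.21 at 4 h. Number 3 stood above both other numbers in RNA in all 5 groups, while the footprint ranges of the numbers overlapped.

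Mag encodes a sialic acid-binding glycoprotein of the membrane that faces the axon. In footprints, numbers 1, 2 and 3 had 42.7, 32.1 and 41.8 in the control libraries, 50.9, 36.4 and 44.3 at 5 min, 45.4, 37.3 and 39.98 at 10 min, 43.5, 42.99 and 35.4 at 30 min and 43.1, 43.8 and 39.99 at 4 h. RNA stood at 18.8, 13.4 and 16.9 in the control libraries, 19.8, 14.4 and 15.9 at 5 min, 19.7, 15.9 and 16.5 at 10 min, 18.6, 16.7 and 14.5 at 30 min and 18.3, 15.9 and 15.2 at 4 h. The control library of number 2 was the lowest of 15 in both kinds, and the 5 min library of number 1 the highest in both.

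Cldn11 encodes the claudin that forms the tight junctions between myelin layers. Numbers 1, 2 and 3 gave footprint signals of 26.9, 26.04 and 28.8 in the control libraries, 32.01, 28.8 and 31.8 at 5 min, 29.4, 32.2 and 31.97 at 10 min, 28, 35.4 and 27.03 at 30 min and 27.6, 33.5 and 30.8 at 4 h. The RNA values were 14.3, 12.4 and 15.4 in the control libraries, 15.8, 13.01 and 15.8 at 5 min, 15.6, 14.5 and 16.05 at 10 min, 14.9, 16.2 and 13.8 at 30 min and 14.5, 15.1 and 14.7 at 4 h. All footprint libraries at 5 min and at 10 min lay above all control libraries, at 5 min by the narrowest of margins (28.79 against 28.77), while in RNA every time overlapped with control.

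Mal encodes a small raft-associated protein of membrane trafficking. The footprint values of numbers 1, 2 and 3 were 12.98, 13.1 and 16.1 in the control libraries, 15.5, 13.99 and 15.96 at 5 min, 13.96, 16.1 and 16.1 at 10 min, 13.7, 16.98 and 13.7 at 30 min and 13.4, 16.3 and 15.7 at 4 h. Mal RNA gave 29.02, 24.9 and 30.6 in the control libraries, 31.1, 24.2 and 30.3 at 5 min, 32.4, 27.4 and 30.1 at 10 min, 29.8, 29.8 and 27.7 at 30 min and 29.9, 29.5 and 30.98 at 4 h. In RNA the 2 lowest libraries were the control and 5 min libraries of number 2, and in both kinds every time overlapped with control.

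Ugt8a encodes the galactosyltransferase of the endoplasmic reticulum that makes galactosylceramide, the typical lipid of myelin. Footprints of numbers 1, 2 and 3 stood at 12.98, 8.85 and 11.9 in the control libraries, 13.7, 9.53 and 11.8 at 5 min, 12.5, 10.6 and 11.9 at 10 min, 12.5, 11.8 and 10.9 at 30 min and 11.8, 11.5 and 10.6 at 4 h. In RNA they were 9.43, 7.11 and 8.61 in the control libraries, 10.6, 7.75 and 8.87 at 5 min, 10.3, 7.75 and 9.03 at 10 min, 9.36, 8.63 and 8.51 at 30 min and 9.24, 9.36 and 8.38 at 4 h. The control library of number 2 was again the lowest in both kinds.

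Mbp encodes the basic protein that joins the cytoplasmic faces of compact myelin. The row carries the RefSeq identifier NM_001025245, which the deposited table describes as a Golli-Mbp transcript, and the counting of reads shared by Mbp transcripts was not given in the sources used here. For numbers 1, 2 and 3 the footprint signal was 17.8, 21.2 and 22.5 in the control libraries, 17.9, 22.2 and 21.9 at 5 min, 17.8, 22.4 and 22.1 at 10 min, 17.01, 21.8 and 22.03 at 30 min and 16.7, 23.2 and 22.8 at 4 h. Mbp RNA was at 8.02, 8.08 and 8.08 in the control libraries, 7.86, 7.84 and 8.56 at 5 min, 7.72, 7.99 and 7.96 at 10 min, 7.53, 8.55 and 7.75 at 30 min and 7.38, 7.92 and 8.63 at 4 h. In footprints number 1 lay below both other numbers in every group, and in RNA the 15 libraries spanned only 7.38 to 8.63.

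Mobp encodes a small basic protein on the cytoplasmic side of compact myelin. Its footprint signal in numbers 1, 2 and 3 was 6.46, 7.09 and 8.81 in the control libraries, 6.94, 7.70 and 9.46 at 5 min, 6.90, 8.82 and 9.13 at 10 min, 5.98, 8.02 and 8.53 at 30 min and 6.83, 8.57 and 9.59 at 4 h. Its RNA signal was 9.33, 10.3 and 12.6 in the control libraries, 9.51, 10.9 and 12.3 at 5 min, 9.95, 11.2 and 12.8 at 10 min, 9.16, 11.8 and 11.7 at 30 min and 9.86, 12.2 and 14.2 at 4 h. Number 1 was the lowest of the 3 numbers in every group and in both kinds.

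Cnp encodes the cyclic nucleotide phosphodiesterase of non-compact myelin. Cnp footprints of numbers 1, 2 and 3 were 18.6, 16.3 and 18.5 in the control libraries, 18.5, 15.3 and 17.5 at 5 min, 18.9, 15.9 and 18.3 at 10 min, 18.5, 15.6 and 19.3 at 30 min and 19.1, 15.2 and 18.1 at 4 h. Cnp RNA had values of 11.3, 10.4 and 12.01 in the control libraries, 11, 10.1 and 10.9 at 5 min, 11.6, 10.1 and 10.3 at 10 min, 11.3, 9.43 and 11.5 at 30 min and 11.5, 9.08 and 10.6 at 4 h. Number 2 was the lowest of the 3 numbers in every group and in both kinds.

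Olig1 encodes a basic helix-loop-helix transcription factor of the oligodendrocyte lineage, which is expressed from precursors onward. Numbers 1, 2 and 3 had Olig1 footprint signals of 3.74, 5.50 and 4.16 in the control libraries, 4.06, 5.42 and 4.17 at 5 min, 3.92, 5.38 and 4.67 at 10 min, 3.96, 5.17 and 4.36 at 30 min and 4.04, 5.42 and 4.53 at 4 h. Olig1 RNA signals were 2.46, 3.05 and 2.96 in the control libraries, 2.40, 2.71 and 3.19 at 5 min, 2.52, 3.27 and 2.74 at 10 min, 2.46, 3.17 and 2.92 at 30 min and 2.20, 2.91 and 2.90 at 4 h. In footprints number 2 was the highest in every group, and the ranges of the 3 numbers did not overlap.

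**Figure D1:**
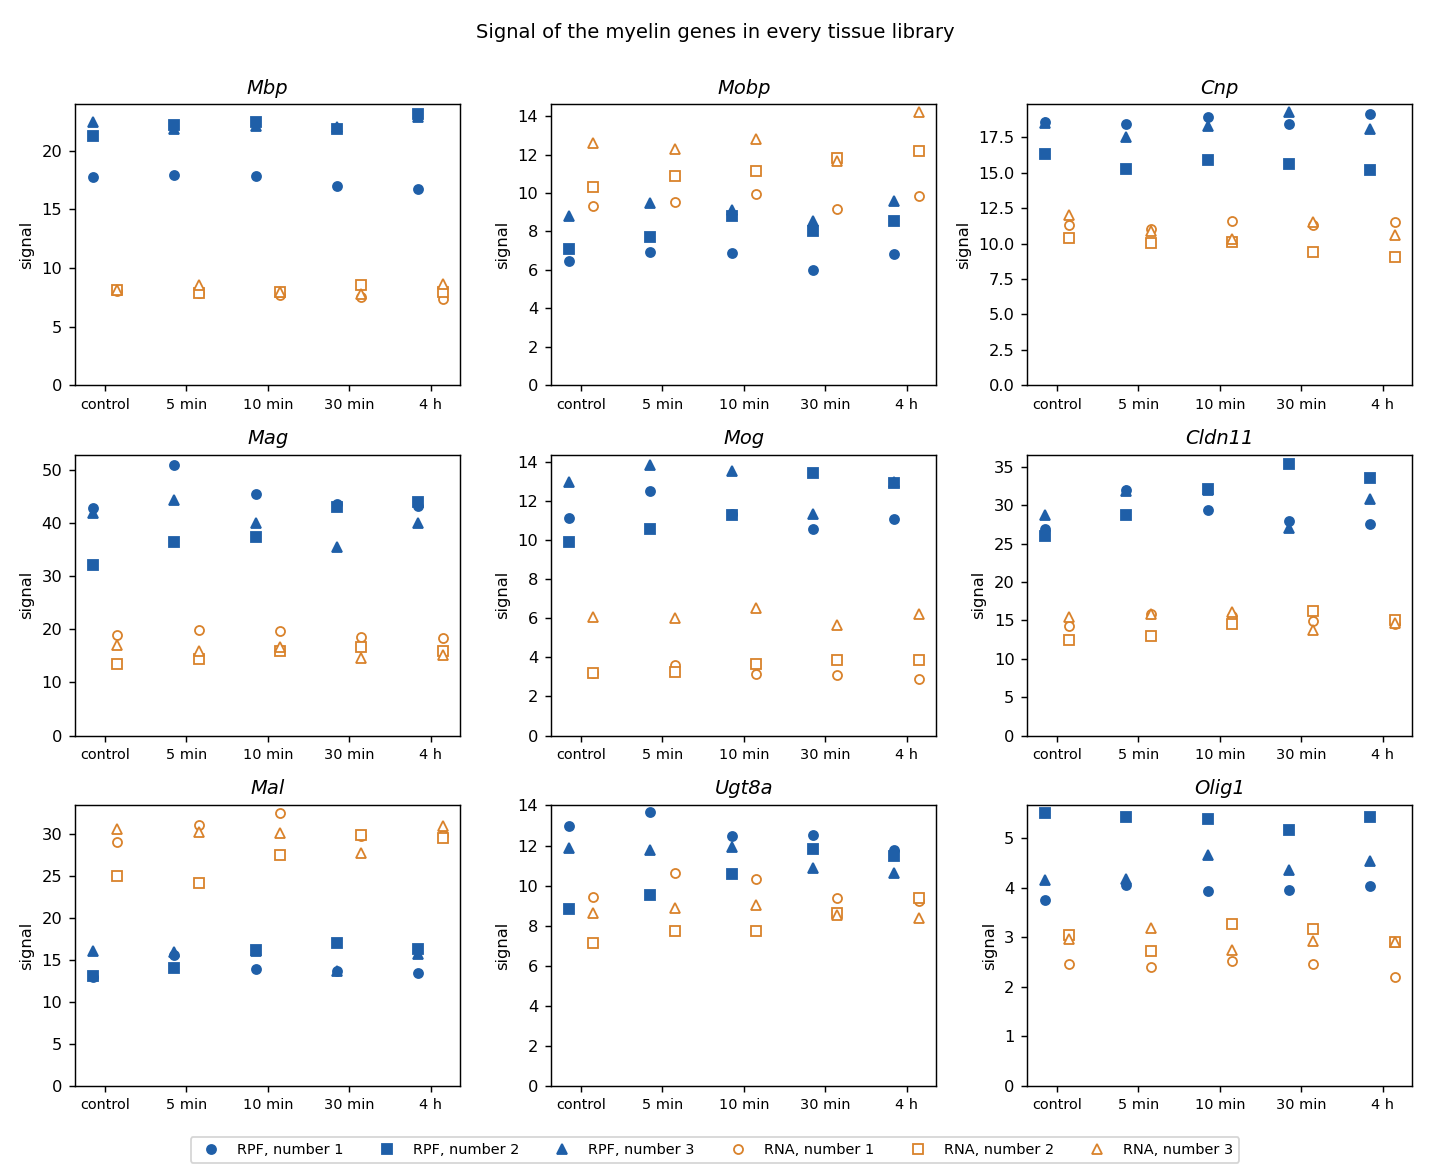
Signal (y axis, linear from 0) of the 9 genes in every tissue library, by group (x axis). Filled blue symbols are footprints, open orange symbols RNA, and the shape gives the replicate number. The open triangles of Mog (number 3, RNA) lie between 5.65 and 6.51, above all other RNA libraries of that gene.

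The first question was whether these genes change after conditioning. None of the 9 passed the test in footprints, RNA or translational efficiency (TE, footprints relative to RNA) at any of the 4 times, by limma on log2(signal + 1), with p-values adjusted over every tested gene (Benjamini-Hochberg) and called under 0.05. The background was the same: 0.0% of 7898 genes in RPF, 0.0% of 8061 in RNA and 0.0% of 7103 in TE were called at each time. At an unadjusted p under 0.05 there were 51, 26, 20 and 42 genes in RPF at 5, 10, 30 min and 4 h, 84, 150, 118 and 209 in RNA and 50, 58, 16 and 44 in TE, with 0 members among them in this fit, which leaves out the replicate number. Differences between replicate numbers stay in the error of this fit, so its p-values can be too large. Few small p-values are then no evidence that nothing changed. The 4 comparisons share their control libraries, and a fold change on this scale understates that of a gene with low signal.

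In the same fit Cldn11 had the smallest unadjusted p of the 9 in footprints at all 4 times. Its log2 change in RPF was 0.17 at 5 min, 0.19 at 10 min, 0.13 at 30 min and 0.16 at 4 h, each with an SE of 0.10, and the unadjusted limma p was 0.118, 0.0940, 0.225 and 0.149 (adjusted p = 1.00 at each time). Its position above control at 5 and 10 min was held by 1.77% and 1.29% of all genes tested. In RNA Cldn11 had the smallest p at 5, 10 and 30 min, with log2 changes of 0.08, 0.13 and 0.09 (SE 0.09) and unadjusted limma p of 0.392, 0.173 and 0.327. At 4 h it was Cnp, whose RNA differed by −0.11 (SE 0.09), with an unadjusted limma p of 0.268 and an adjusted p of 1.00. Without the control library of number 2 these 3 RNA changes of Cldn11 were −0.000894, 0.05 and 0.01. That fit also lacks the replicate number, so leaving out 1 library unbalances the numbers between groups. Within numbers 1, 2 and 3 Cldn11 RNA differed from control by 0.14, 0.06 and 0.04 at 5 min. The differences were 0.12, 0.21 and 0.05 at 10 min and 0.06, 0.36 and −0.15 at 30 min. In TE the smallest unadjusted p belonged to Mag at 5 min (0.481), Cldn11 at 10 min (0.669), Cnp at 30 min (0.708) and Olig1 at 4 h (0.520).

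With the replicate number as a block the SE of the members was 0.0436 to 0.0937 in RPF and 0.0460 to 0.0645 in RNA, and some had an unadjusted limma p under 0.05. These were Cldn11 footprints at 5 min (0.0476) and 10 min (0.0341), Mobp footprints at 10 min (0.0172) and 4 h (0.0139) and, in RNA at 4 h, Mobp (0.00360) and Cnp (0.0366). In that order their adjusted limma p was 0.668, 0.998, 0.998, 0.716, 0.147 and 0.269. The share of all genes under the same unadjusted p in this fit is not given here, so these are not read as particular to the members. The adjusted limma p of a member was at least 0.147 in that fit, which called 0 members and at most 4 genes in any comparison with control at 1 time.

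The differences of the other members were small. Over all 9 genes they ran from −0.06 to 0.19 on the log2 scale in RPF and from −0.11 to 0.15 in RNA, where the highest was Mobp at 4 h and the lowest Cnp at 4 h. The SE was 0.105 (Cldn11) to 0.156 (Mobp) in RPF and 0.0615 (Mbp) to 0.290 (Mog) in RNA, in the fit without the replicate number. The RNA of Mbp at 10 min lay below control in all 3 libraries, as did 1.29% of genes, by a log2 difference of only −0.03.

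In footprints the members' median log2 difference from control was 0.10, 0.08, 0.05 and 0.10 at 5, 10, 30 min and 4 h, with 8, 8, 7 and 8 of 9 genes above control, against medians of −0.00475, 0.000467, 0.0126 and 0.00162 over all genes tested, of which 47.3%, 50.3%, 60.8% and 51.2% lay above control. In RNA the medians were 0.02, 0.08, 0.02 and 0.05, with 7, 7, 7 and 6 of 9 above control, against 0.0126, 0.0316, 0.0304 and 0.0269 over all genes, of which 60.0%, 71.0%, 71.6% and 66.2% lay above control, close to the members' share. This RNA count depended on the scaling: at 30 min it was 4 of 9 after rescaling by trimmed means (TMM) and 2 of 9 in voom. The counts of both kinds also changed when 1 library was left out of this fit. Without the control library of number 2 the RPF counts were 7, 6, 4 and 7 of 9, with a median of −0.02 at 30 min, and the RNA counts were 3, 4, 2 and 2 of 9. Without the 30 min library of number 2 the RPF median at 30 min was −0.03. These fits lack the replicate number, so leaving out 1 library also unbalances the numbers between groups. Within numbers 1, 2 and 3 the members above control in RNA were 6, 5 and 4 of 9 at 5 min. At 30 min they were 3, 8 and 0 of 9. Of all genes tested 57.7%, 53.1% and 57.9% lay above control at 5 min, and 67.2%, 62.3% and 58.5% at 30 min.

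**Figure D2:**
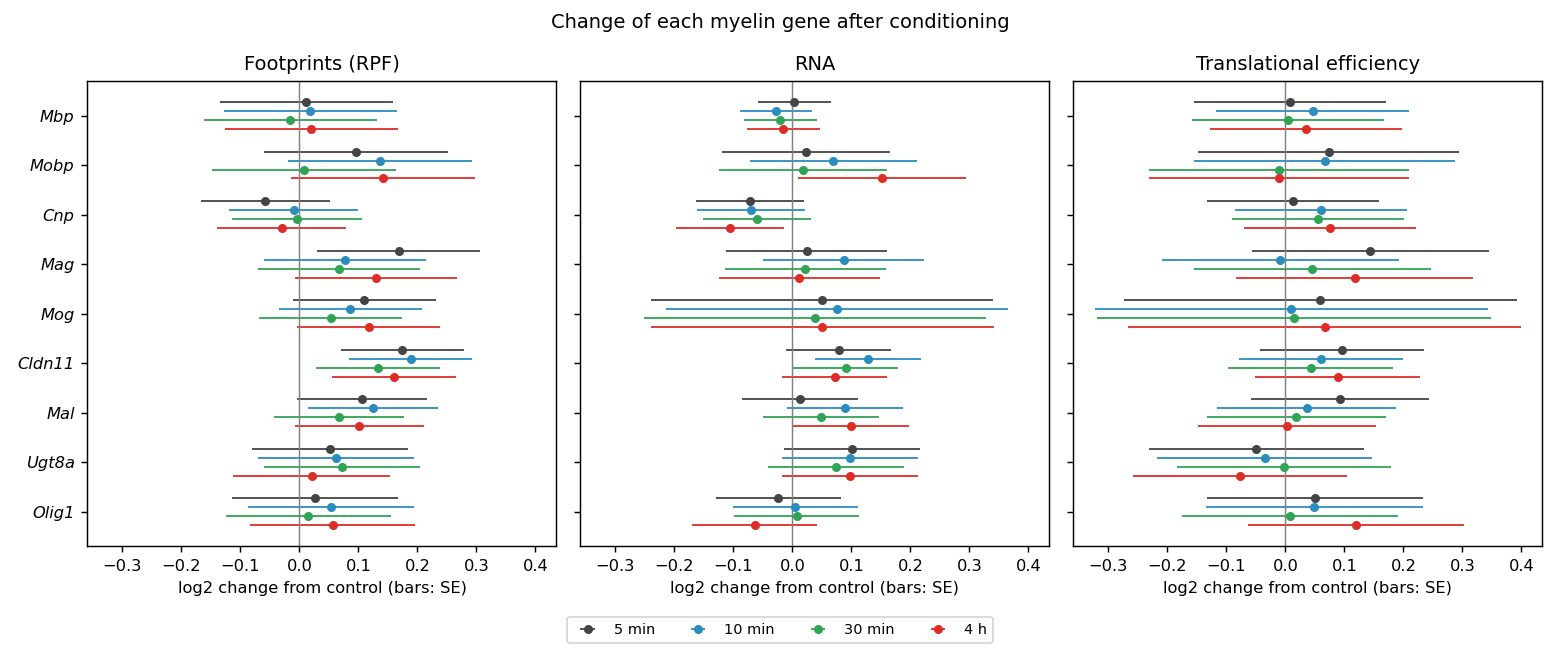
Log2 difference from control (x axis) of each gene (y axis) in footprints, RNA and TE; points are limma estimates, bars 1 SE, colours the 4 times. Cldn11 footprints lie between 0.13 and 0.19 and no gene in any panel passed the threshold.

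No other listed oligodendrocyte gene was called at any time in any of the 3 measures. As 0.0% of all genes tested were called, this tells nothing particular to the lineage. In RPF 0 of 22 tested myelin structural genes other than the members were called, and 0 of 18 myelin lipid synthesis genes. Of the oligodendrocyte transcription factors 0 of 7 were called, of the mature oligodendrocyte genes 0 of 26 and of the precursor genes 0 of 9. In the same order 20, 14, 3, 15 and 9 of these lay above control in RPF at 5 min, where 47.3% of all genes did. The 9 precursor genes lay above control at each of the 4 times. Genes of a list share their libraries, and these counts were not tested. Gpm6b, a membrane protein of myelin and neurons, had footprint signals of 93.9 ± 8.74 in control and 99.95 ± 7.82, 98.5 ± 4.41, 101 ± 8.72 and 101 ± 2.39 at the 4 times (SD, n = 3).

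Members were called between replicate numbers, though not between times, but these tests are unlike. The number test holds group in the model and has 5 libraries per number. The main time fit leaves the number in its error and has 3 libraries per group. With the number as a block, the time fit still called 0 members. With group in the model, 6 of 9 differed between numbers in RPF, where 73.1% of all genes did, and 7 of 9 in RNA, where 65.5% did (limma moderated F-test, adjusted p under the threshold). The members were thus called about as often as other genes, and what the number stands for was not given in the sources used here.

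Mog RNA held the widest difference. Its mean signal in numbers 1, 2 and 3 was 3.20 ± 0.260, 3.57 ± 0.336 and 6.09 ± 0.313 (SD over 5 groups), a ratio of 1.91 between the highest and the lowest (limma F-test, adjusted p = 3.07e-12), and its footprints were 11.4 ± 0.711, 11.6 ± 1.51 and 12.9 ± 0.974 (ratio 1.14, adjusted p = 0.0569). The footprint p passed the threshold under TMM (0.0322) and voom (0.00232).

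Mobp and Cnp differed in both kinds. Mobp footprints were 6.62 ± 0.405, 8.04 ± 0.689 and 9.10 ± 0.442 in numbers 1, 2 and 3 (adjusted p = 5.67e-07) and its RNA 9.56 ± 0.341, 11.3 ± 0.745 and 12.7 ± 0.930 (adjusted p = 1.86e-08, limma F-test for both). Cnp footprints were 18.7 ± 0.299, 15.7 ± 0.472 and 18.4 ± 0.650 (adjusted p = 1.41e-05) and its RNA 11.3 ± 0.219, 9.82 ± 0.543 and 11.1 ± 0.695 (adjusted p = 0.000163), with number 2 the lowest in each. Mobp and Cnp thus ordered the numbers differently. Mbp footprints were 17.4 ± 0.540, 22.2 ± 0.710 and 22.3 ± 0.391 (limma F-test, adjusted p = 4.22e-07), but its RNA, 7.70 ± 0.255, 8.07 ± 0.277 and 8.19 ± 0.384, did not pass the threshold (adjusted p = 0.118). It did under TMM (0.00109) and voom (6.99e-05).

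Olig1 footprints were 3.94 ± 0.124, 5.38 ± 0.123 and 4.38 ± 0.222 in numbers 1, 2 and 3 (limma F-test, adjusted p = 2.30e-07) and its RNA 2.41 ± 0.124, 3.02 ± 0.219 and 2.94 ± 0.161 (adjusted p = 1.80e-05). Number 2 was thus high for the transcription factor and low for Mag, Ugt8a and Cnp. Mag RNA was 19.04 ± 0.692, 15.3 ± 1.33 and 15.8 ± 0.982 (adjusted p = 7.34e-06) and Ugt8a RNA 9.79 ± 0.630, 8.12 ± 0.879 and 8.68 ± 0.264 (adjusted p = 0.000304, limma F-test), with number 1 the highest in each. Their footprints followed the same order, with adjusted p of 0.0245 for Mag and 0.00433 for Ugt8a, and Mag did not pass under TMM (0.0521) or voom (0.144), nor Ugt8a RNA under voom (0.0502).

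Mal passed in RNA (30.4 ± 1.34, 27.2 ± 2.58 and 29.9 ± 1.29, limma F-test, adjusted p = 0.00690) and not in RPF (0.0910), and Cldn11 in neither (0.224 in RNA, 0.295 in RPF). Under voom both passed in RPF (0.00108 for Mal, 0.00522 for Cldn11). Single numbers carried many of these calls. Without number 1 the count of members that differed was 3 of 9 in RPF and 4 of 9 in RNA, and Mbp, Mag and Ugt8a footprints (limma adjusted p = 0.947, 0.612 and 0.239) and Mag, Ugt8a and Olig1 RNA (0.556, 0.181 and 0.693) did not pass. Without number 2, Cnp did not pass in RPF (0.418) or RNA (0.368), nor Mal in RNA (0.503), while the footprints of Mog and Mal then did (9.92e-06 and 0.000714).

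Markers of other cells differed between the same numbers. The summed footprint signal of 14 choroid plexus genes, which belong to the secretory tissue beside the hippocampus, was 1325 to 2108 in number 1, 930 to 1915 in number 2 and 69.4 to 499 in number 3, and all 12 that were tested were called. The summed signal of 14 astrocyte genes was 738 to 785, 541 to 659 and 614 to 681, and 12 of 14 were called. That of 15 neuron genes was 888 to 916, 826 to 879 and 863 to 910, with 13 of 15 called. These counts stand beside the 73.1% of all genes called in the same test. Their part in the members' differences was not tested.

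Within a number, several members were high or low in the same libraries. In number 2 the footprints of Cldn11, Mag, Mog, Ugt8a and Mal were higher at 30 min than in control by 0.43, 0.41, 0.41, 0.38 and 0.35 on the log2 scale, and their RNA by 0.36, 0.29, 0.22, 0.25 and 0.25. Over all genes tested the median difference between the same libraries was 0.0221 in RPF and 0.0401 in RNA. In number 3 the same genes were lower at 30 min than in control, with footprint differences of −0.09, −0.23, −0.18, −0.11 and −0.22. In number 1 the members' median footprint difference at 30 min was −0.0109. At 5 min the footprints of 8, 7 and 5 of 9 members lay above control in numbers 1, 2 and 3. Of all genes tested 50.4%, 48.0% and 46.4% did so. Footprints of Mobp, Mag, Mog and Cldn11 lay above control in all 3 numbers, while Cnp footprints and RNA lay below control in all 3. Mobp and Cldn11 footprints also lay above control in all 3 numbers at 10 min and at 4 h, and Mog at 10 min. The share of all genes with the same sign in all 3 numbers is not given here. These are single pairs of libraries, which give no test.

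Cnp did not vary with them. In number 2 its footprints at 30 min differed from control by −0.06 on the log2 scale and its RNA by −0.13, and in number 3 the footprint difference was 0.06. Mbp differed by 0.04 and −0.03 in footprints of numbers 2 and 3, Mobp by 0.16 and −0.04 and Olig1 by −0.07 and 0.06. Mobp thus went in the direction of the 5 genes. Its RNA at 30 min differed by 0.18 in number 2 and −0.10 in number 3. In number 2 its footprints differed from control by 0.28 at 10 min and 0.24 at 4 h. As background, the 5 genes that varied together encode membrane proteins, and Mbp, Mobp, Cnp and Olig1 encode cytoplasmic or nuclear proteins. This split was read from these same values and is not sharp for Mobp. Neither the split nor a part of protein location in it was tested.

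Pearson's r over the 15 RPF libraries, after each number's mean was subtracted, restates this pattern as a description. Between a gene and the mean of the other 8 it was 0.955 for Cldn11, 0.946 for Mal, 0.939 for Mog, 0.904 for Mag and 0.821 for Ugt8a, 0.694 for Mobp, 0.509 for Mbp, −0.133 for Olig1 and −0.606 for Cnp. In RNA the order was similar, with 0.921 for Mal and 0.908 for Cldn11 at the top and −0.608 for Cnp at the bottom. The libraries share depth, scaling and tissue, and footprints and RNA of the same label share their sample name. Across the 12 comparisons with control within a number, footprint and RNA differences had the same sign in 11 for Cldn11 and for Mobp, 10 for Mog, Mal, Cnp and Ugt8a, 9 for Mag, 6 for Mbp and 4 for Olig1.

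The pattern was not limited to the members. Of 1994 abundant genes that are not members, 21.3% had an r above 0.8 with the members' mean in RPF after the number means were subtracted. Among the closest were Npdc1 (0.956), Itm2b (0.952), Tmem47 (0.947), Ppap2b (0.944), Gsn (0.940), Acp2 (0.939) and Scd2 (0.935). By r over the 15 libraries without that subtraction they were Reep2 (0.934), Tm2d2 (0.921), Mal2 (0.917), Fam134a (0.911), Scamp5 (0.911), Gde1 (0.906), Cst3 (0.8995) and B2m (0.897), with 2.71% of the 1994 genes above 0.8, and r in RNA from 0.371 for Gde1 to 0.928 for Cst3.

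Among other oligodendrocyte genes the values spread widely. After the subtraction r in RPF was 0.927 for Gpr37, a receptor, 0.915 for Trf, the transferrin, 0.903 for the tetraspanin Tspan2 and 0.869 for the ceramide desaturase Degs1. It was −0.246 for the carbonic anhydrase Car2, −0.0678 for the reductase Qdpr, −0.716 for the fatty acid synthase Fasn and −0.848 for Hmgcs1, an enzyme of cholesterol synthesis.

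Genes of other cell types differed between these libraries too. Between control and 30 min of number 2 the median footprint difference was 0.21 over 22 myelin structural genes (21 higher), 0.25 over 14 astrocyte genes (9 higher) and 0.25 over 12 microglia genes (12 higher). It was 0.28 over 11 genes that mark hippocampal subfields (8 higher), −0.02 over 15 neuron genes (7 higher) and −0.56 over 12 choroid plexus genes (0 higher). In number 3 the same medians, in that order, were −0.12, −0.05, −0.05, −0.01, 0.02 and −0.02. In number 1 choroid plexus genes had a median of −0.51 (0 of 12 higher), as in number 2, while myelin structural genes had −0.000548 (10 of 22 higher). The summed choroid plexus signal was 2108 in control and 1325 at 30 min of number 1, 1915 and 1092 in number 2, and 183 and 188 in number 3. The part of these cell types in the members' shared pattern was not tested.

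**Figure D3:**
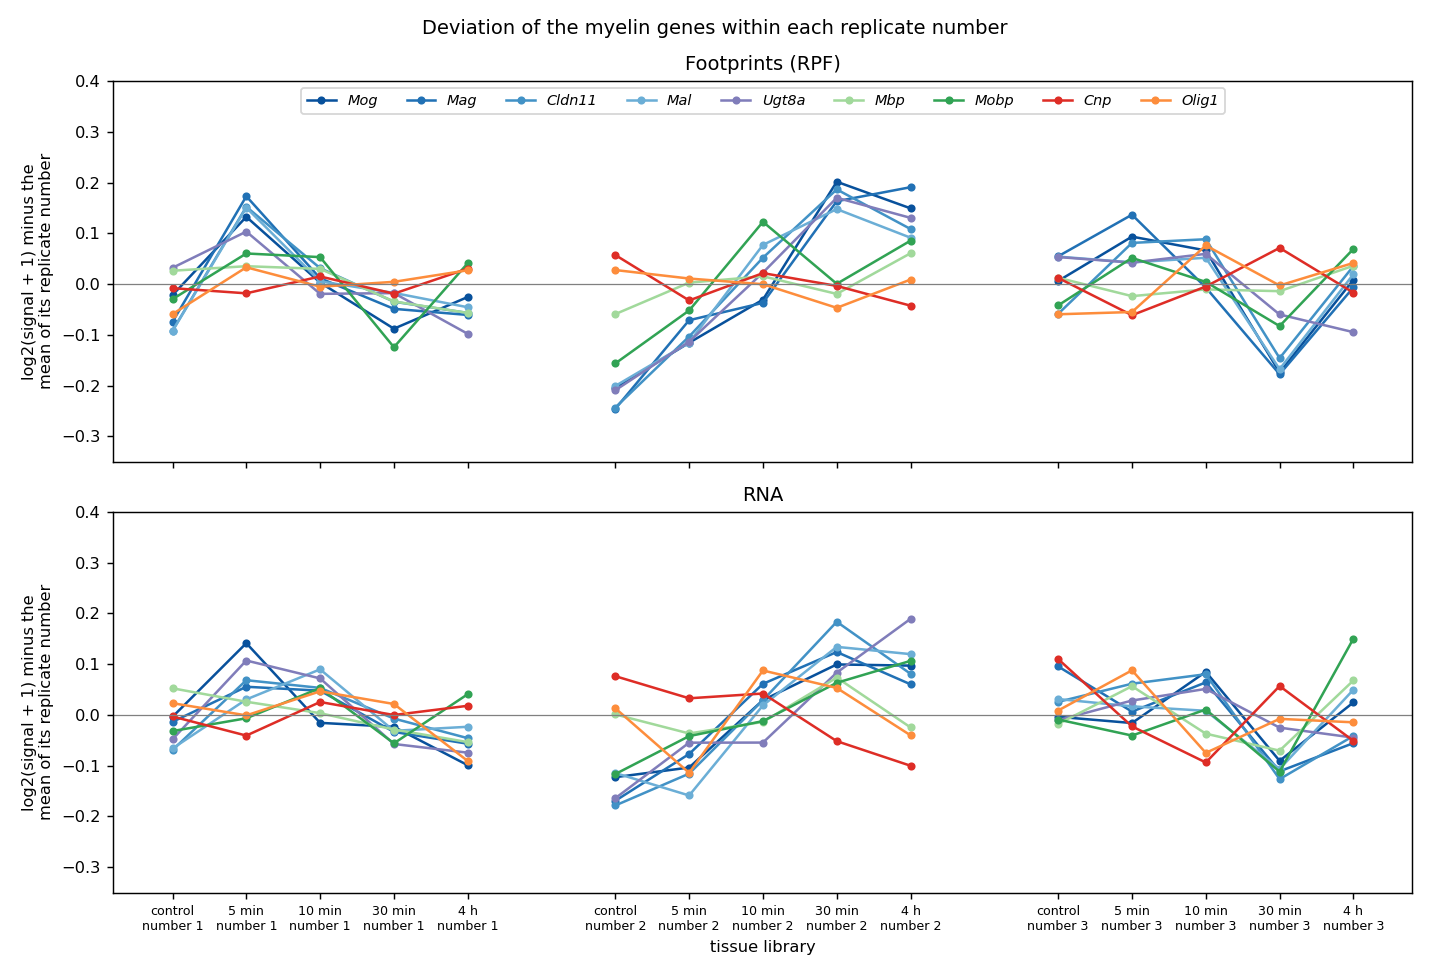
Log2(signal + 1) of each gene minus its mean over the 5 libraries of its replicate number (y axis), for the 15 libraries of each kind (x axis). Blue and purple lines (Mog, Mag, Cldn11, Mal, Ugt8a) are low in control and high at 30 min of number 2 and lower at 30 min of number 3 than in its control, while the red line (Cnp) does not follow them.

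The 250 bases before the annotated start of 3 genes that varied together (Mog, Cldn11, Mal) and of 2 other members (Cnp, Mobp) are given to show what their promoters share. They are from RefSeq on GRCm38.p6, written 5′ to 3′ on the strand of the gene. Entries were found for 7 of the 9 members. Capitals mark matches, on either strand, to ACAAAG, the core bound by SOX factors such as SOX10, and to CTGGNAC, a sequence bound by MYRF, the myelin regulatory factor.
Mog, chr17:37023399-37023648, minus strand: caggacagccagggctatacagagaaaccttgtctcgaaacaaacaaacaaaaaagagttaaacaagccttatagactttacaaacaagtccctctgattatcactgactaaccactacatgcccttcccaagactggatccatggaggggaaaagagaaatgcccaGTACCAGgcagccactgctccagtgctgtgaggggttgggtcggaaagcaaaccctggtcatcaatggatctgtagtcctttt
Cldn11, chr3:31149670-31149919, plus strand: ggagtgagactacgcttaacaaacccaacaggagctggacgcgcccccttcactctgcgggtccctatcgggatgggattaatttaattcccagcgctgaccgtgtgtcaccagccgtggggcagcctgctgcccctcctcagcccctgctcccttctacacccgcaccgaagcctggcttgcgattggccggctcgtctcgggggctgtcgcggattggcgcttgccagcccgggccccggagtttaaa
Mal, chr2:127656696-127656945, minus strand: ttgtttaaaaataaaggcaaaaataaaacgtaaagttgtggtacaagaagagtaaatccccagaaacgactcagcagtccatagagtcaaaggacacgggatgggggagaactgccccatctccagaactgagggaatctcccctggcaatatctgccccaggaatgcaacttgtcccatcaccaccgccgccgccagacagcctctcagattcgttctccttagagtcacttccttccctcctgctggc
Cnp, chr11:100574689-100574938, plus strand: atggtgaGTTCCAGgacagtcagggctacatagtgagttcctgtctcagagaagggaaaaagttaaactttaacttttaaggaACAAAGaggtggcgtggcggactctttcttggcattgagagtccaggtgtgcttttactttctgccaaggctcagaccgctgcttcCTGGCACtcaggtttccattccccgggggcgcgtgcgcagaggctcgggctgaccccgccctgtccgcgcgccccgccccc
Mobp, chr9:120149492-120149741, plus strand: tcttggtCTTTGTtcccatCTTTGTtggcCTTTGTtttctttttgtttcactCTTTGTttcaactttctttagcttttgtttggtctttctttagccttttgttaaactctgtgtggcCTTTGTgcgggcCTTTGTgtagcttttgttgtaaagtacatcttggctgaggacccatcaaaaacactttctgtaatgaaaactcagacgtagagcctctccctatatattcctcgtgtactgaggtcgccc
The SOX core was found in 3 of the 7 members (Mobp, Cnp and Mag), 6 times in Mobp, and in 16.5% of the 32851 promoter windows of that length. CTGGNAC was found in Cnp, Mag and Mog, and in 16.1% of windows. The 7 members had 9 windows, since Mag had several, and a Mag window held neither sequence. Counts by member and shares by window are therefore not alike. The E-box CAGCTG, of the kind bound by OLIG factors, was in 0 of 7 members and in 4271 of the 32851 windows. Neither SOX core nor CTGGNAC was in the windows of Cldn11, Mal and Ugt8a, so the 5 genes that varied together do not share these letters here. A match of letters is no evidence of binding.

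In control hippocampus most members had more footprints per RNA than the median gene. TE, taken as log2((RPF + 1)/(RNA + 1)) minus the median of 7103 genes, was 1.27 ± 0.304 for Mog (SD, n = 3), 1.20 ± 0.145 for Mbp, 1.16 ± 0.0391 for Mag and 0.88 ± 0.0881 for Cldn11. These values lay above those of 95.5%, 94.9%, 94.4% and 89.7% of genes. Cnp (0.58 ± 0.0623), Olig1 (0.47 ± 0.162) and Ugt8a (0.34 ± 0.0842) followed. Mobp was at −0.51 ± 0.0206, above 22.5% of genes, and Mal at −0.99 ± 0.113, above 9.11%. Whether gene length enters the values, and how shared reads were counted, were not given in the sources used here. Ranks among genes can therefore also reflect the counting, and the Mbp row is described as a Golli-Mbp transcript.

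Not all neighbours in this order were resolved. The 3 replicate values of Mog overlapped with those of Mbp, Mag and Cldn11, those of Mbp with Mag, and those of Olig1 with Cnp and Ugt8a. The Mobp values and the Mal values lay apart from each other and below all others.

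**Figure D4:**
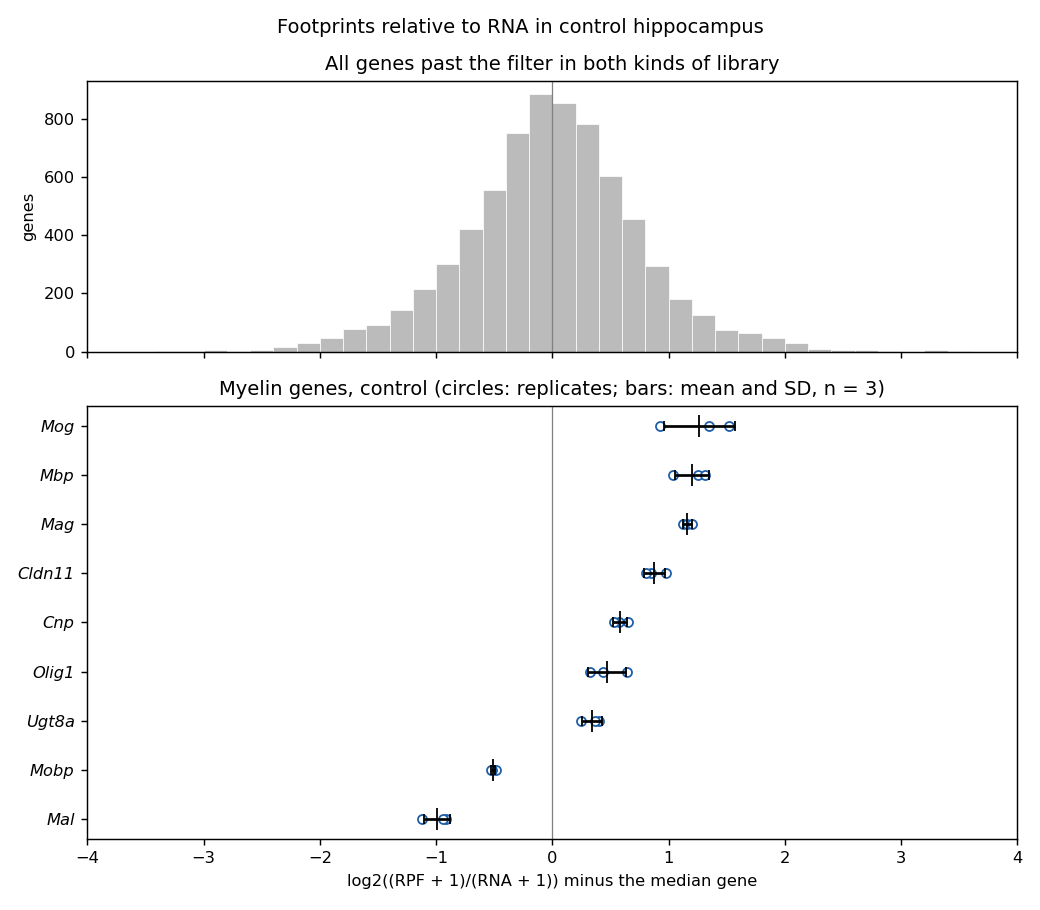
Upper panel, number of genes (y axis) by TE in control (x axis, log2, median gene at 0). Lower panel, the same axis for the 9 genes, circles for the 3 replicates and bars for mean and SD; Mog, Mbp and Mag lie at 1.16 to 1.27 and Mal at −0.99.

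Footprints and RNA did not always differ alike between replicate numbers. In TE 4 of 9 members differed (limma F-test of the interaction of kind and number, background 44.2%). Mog TE was 1.55 ± 0.0534, 1.43 ± 0.0797 and 0.943 ± 0.0676 in numbers 1, 2 and 3 (SD over 5 groups, limma adjusted p = 2.29e-05). Between the same numbers its RNA differed 1.91-fold and its footprints 1.14-fold. Mbp TE was 1.08 ± 0.0285, 1.32 ± 0.0822 and 1.31 ± 0.0580 (limma adjusted p = 9.84e-05), where footprints differed 1.28-fold and RNA 1.06-fold between the highest and lowest number. Olig1 (limma adjusted p = 0.00496) and Mal (0.0246) also passed, Mal not under TMM (0.0570). The call for Mog was lost without number 3 (limma adjusted p = 0.476), those for Mbp and Mal without number 1 (0.923 and 0.504) and that for Olig1 without number 2 (0.125). Mobp TE was −0.478, −0.474 and −0.469 in the 3 numbers (limma adjusted p = 0.852), although its footprints and its RNA each differed between them.

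**Figure D5:**
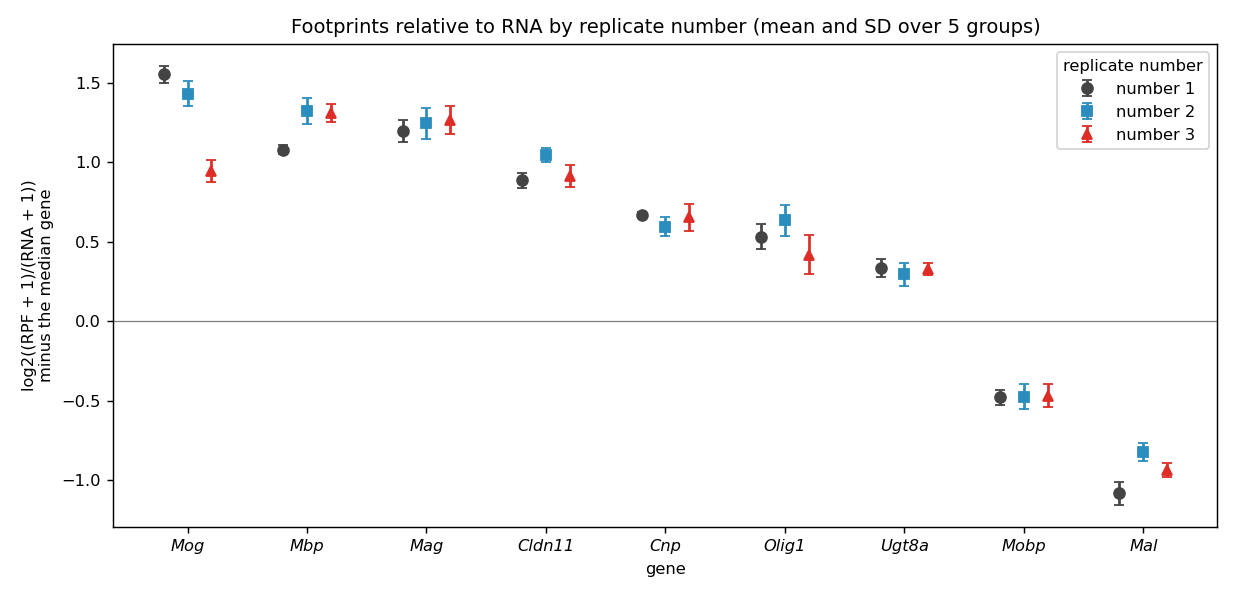
TE (y axis, log2, median gene at 0) of the 9 genes (x axis) by replicate number, mean and SD over the 5 groups. Mog of number 3 (red triangle, 0.943) lies below numbers 1 and 2, Mbp of number 1 (1.08) below numbers 2 and 3, and the 3 Mobp values coincide.

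The primary culture and the stem cells each listed 3 of the 9 genes (33.3%), whereas the culture listed 88.1% and the stem cells 82.0% of all genes of the tissue tables. The culture listed Mbp, Cnp and Olig1, and the stem cells Mobp, Cnp and Ugt8a. The smallest number of reads listed in the culture was 33 in RPF and 14 in RNA, and no level is given for a gene that is not listed. With 1 library of each kind there is no test, and values below are in RPM, reads scaled to the same total over the 8760 genes common to all tables, with exact 95% Poisson intervals that cover counting error only.

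Myelin protein genes in the culture were far below tissue. Mbp had 8.90 footprint RPM (7.49 to 10.5) against 418 ± 57.5 in control tissue (SD, n = 3), 47.0 times less, and 14.5 RNA RPM (11.7 to 17.8) against 157 ± 9.71. Cnp had 13.7 in RPF (11.96 to 15.7) against 362 ± 12.5, and 8.19 in RNA (6.11 to 10.7) against 218 ± 16.2.

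Olig1, the transcription factor, was closer to tissue. Its footprints were at 35.3 RPM in the culture (32.5 to 38.4) against 91.5 ± 22.7, 2.59 times less, and its RNA at 37.0 (32.4 to 42.0) against 55.2 ± 9.21, 1.49 times less. Sox10, Olig2 and Myrf, other transcription factors of the lineage, were not listed in the culture. Pdgfra, a receptor of oligodendrocyte precursors, was 21.9 times lower than tissue in RPF and Cspg4, their proteoglycan, 2.53 times.

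In the stem cells Cnp had 36.1 footprint RPM (34.6 to 37.6), 10.0 times less than tissue, and 28.7 in RNA (26.1 to 31.5). Ugt8a had 11.4 (10.6 to 12.3) against 228 ± 35.2 in RPF and 15.1 (13.2 to 17.1) against 162 ± 14.7 in RNA. Mobp had 5.56 (4.97 to 6.19) against 152 ± 24.4 in RPF and 3.09 (2.28 to 4.10) against 210 ± 39.3 in RNA. Sox10 and Olig2 were not listed there, while Myrf was, at 36.2 against 57.4 ± 2.56 in RPF.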

How the data were processed

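The members and gene lists were chosen with earlier results of these data known. Per the submitters' processing notes, reads were processed with CASAVA 1.8.2 and Bowtie 1.1.1 against mm9. The deposited signal values have no unit in the file headers; multiplied by 1 number per library they are whole reads within 0.002, so depth is the recovered reads on listed genes (14240563 to 30480009 in tissue RPF, 16814796 to 25515210 in RNA). Whether gene length enters, and the counting of shared reads, were not given in the sources used here.

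Genes with a mean signal of at least 1 over 15 libraries were tested with limma 3.58.1 (R 4.3.3, lmFit, eBayes with trend) on log2(signal + 1), with 5 groups, Benjamini-Hochberg adjustment and a threshold of 0.05. TE is the interaction of kind and group over 30 libraries, and the number test a moderated F-test beside group. The TE fits hold no term for the sample, so footprints and RNA of the same label count as independent there. Within numbers the members' footprint and RNA differences from control had the same sign in 81 of 108 pairs. The SE and p-values of TE ignore this pairing. The code was tested on simulated data. All 9 genes were named with every library's value; changes were given for the smallest unadjusted p where none was called. Libraries of the same number deviated together from their group means (r 0.402 to 0.938 in RPF, 0.268 to 0.870 in RNA, 30 pairs each; at most 0.259 and 0.124 between numbers), a pairing seen in the data and not stated in the labels. Alternatives were other pseudocounts (0.25, 4), no filter, TMM rescaling, voom on recovered reads, the replicate block and leaving out libraries. Levels per coding length were not computed, since no protein table was used here. Some genes of the lists are not reported here by name.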

Additional observations from a re-analysis of the deposited data

How the results depend on the processing

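No member was called at any time in RPF, RNA or TE under any of the 177 alternative fits run, and the smallest adjusted p of a member was 0.147 (Mobp RNA at 4 h, limma with the replicate block, log2 change 0.15, SE 0.0471). The replicate block changed no member's call. The planned edgeR and DESeq2 alternatives, edgeR with the block included, were not run, since count tools were kept to files deposited as counts; voom on recovered reads, chosen after seeing the data, was run instead. The members that differed between numbers were 6 in RPF (3 to 7 when a number was left out, 3 without replicate 1), 7 in RNA (4 to 7, 4 without replicate 1) and 4 in TE (2 to 3, 2 without replicate 1). With a pseudocount of 4 the median TE of the members in control was 0.497 in place of 0.610. With single libraries left out, the RNA change of Cldn11 at 5 min ranged from −0.000894 (without the control library of number 2) to 0.17. Its TE change at 10 min ranged from −0.00247 (without the 10 min libraries of number 2) to 0.11. Fits of this kind lack the replicate number, so a library left out also unbalances the numbers between groups. The depth of single members limits little; the spread between libraries sets the precision.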
